A study of Mus musculus with 12 samples.

Results

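The 10 genes described here (*Adipoq*, *Plin1*, *Plin4*, *Fabp4*, *Lep*, *Cfd*, *Cidec*, *Retn*, *Car3* and *Pparg*) are genes of the fat cell, and they were followed as a measure of fat in rhabdomyosarcoma (RMS) tumors dissected from under the skin of mice. They were chosen by name from 38898 genes, with no threshold on their values. RNA was sequenced from 12 bulk tumors numbered m1 to m12, with 3 tumors in each of 4 groups. All tumors grew from Rd76-9 cells, a single embryonal RMS line made from a methylcholanthrene-induced tumor of a female C57BL/6 mouse. The cells were injected with Matrigel into the flanks of immunocompetent C57Bl/6J mice aged 8 to 12 weeks. Treatment with vincristine (VCR, which blocks microtubule assembly) used 0.25 mg/kg by intraperitoneal injection once a week. RCM1, a small molecule inhibitor of the transcription factor FOXM1, was given intravenously in folic acid-coated nanoparticles (RCM1-NPFA) at 8 µg per injection every other day. The vehicle tumors (m1, m2 and m3) are titled as controls, and received saline and empty nanoparticles by the study's design. The treatment label of the control samples names RCM1 nanoparticles instead, and the titles were followed here. VCR alone was given to m4, m5 and m6, RCM1-NPFA alone to m7, m8 and m9, and both to m10, m11 and m12. Tumors were collected at day 16.

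White fat cells store triglyceride in a large lipid droplet, release fatty acids from it when needed, and secrete hormones into the blood. The nuclear receptor PPARγ and factors of the C/EBP family switch on the genes of the mature fat cell, whose products coat the droplet, carry fatty acids and act as hormones. Fat lies directly under the skin, where these tumors grew, and skeletal muscle lies beneath it. In bulk tissue, a smaller number of fat cells and less RNA per fat cell cannot be told apart.

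The libraries held between 29342195 and 32108055 estimated counts, and all 10 adipocyte genes were among the 17602 that passed the filter on low counts. Tumors were compared by CPM, the estimated counts scaled to the TMM-normalized library size. Genes were compared by TPM, the authors' measure that is also scaled to transcript length. The tumors also differed in muscle fiber transcripts, whose source was not tested, as the sum of 22 muscle fiber genes ran from 314 CPM in m2 to 23170 CPM in m9. The sum of 4 Y-linked genes was 0.529 to 1.3 CPM in m1, m2, m5, m7 and m10, and 16.2 to 26 CPM in the other 7 tumors. The low tumors were thus m1 and m2 of vehicle, but a single tumor from each treated group (m5, m7 and m10). Comparisons with vehicle were therefore not balanced for Y-linked level. The cell line came from a female mouse, the paper does not give the sex of the hosts, and the source of these reads was not tested. The defining fat markers were close to absent in part of the series, as *Cidec*, *Lep* and *Retn* each had 0 counts in m3 and m12.

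Promoter windows from 250 bases before to 50 bases from the transcription start on were given by RefSeq on GRCm38.p6 for 8 of the 10 genes, in 11 windows because *Cidec* has 2 starts and *Pparg* 3. *Fabp4* and *Car3* had no window. The motif TTGCNNAA, a form of the C/EBP site, was searched on both strands and was found in windows of *Plin1*, *Lep*, *Cidec* and *Pparg*, against 10.8% of the 32851 windows of all genes. These 4 windows are shown because C/EBP factors are known regulators of fat cell genes. The windows of *Adipoq*, *Plin4*, *Cfd* and *Retn* held none, and the relation of a match to the levels in these tumors was not tested. Capitals mark the motif. The windows are chr7:79732727-79733026 (minus strand) for *Plin1*, chr6:29059971-29060270 (plus strand) for *Lep*, chr6:113434715-113435014 (minus strand) for *Cidec* and chr6:115421816-115422115 (plus strand) for the start of *Pparg* farthest downstream.
Plin1: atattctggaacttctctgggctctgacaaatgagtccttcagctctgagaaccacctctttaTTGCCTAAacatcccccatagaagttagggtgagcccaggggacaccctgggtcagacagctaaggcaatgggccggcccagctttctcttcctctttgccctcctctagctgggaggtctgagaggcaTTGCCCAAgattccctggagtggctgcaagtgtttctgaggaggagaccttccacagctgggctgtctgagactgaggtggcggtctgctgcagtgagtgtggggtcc
Lep: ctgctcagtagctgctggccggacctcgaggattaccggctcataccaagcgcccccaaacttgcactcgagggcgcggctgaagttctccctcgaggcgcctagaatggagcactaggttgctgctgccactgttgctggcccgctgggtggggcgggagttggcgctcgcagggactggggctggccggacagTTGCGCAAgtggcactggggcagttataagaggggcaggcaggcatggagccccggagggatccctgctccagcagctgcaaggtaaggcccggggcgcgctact
Cidec: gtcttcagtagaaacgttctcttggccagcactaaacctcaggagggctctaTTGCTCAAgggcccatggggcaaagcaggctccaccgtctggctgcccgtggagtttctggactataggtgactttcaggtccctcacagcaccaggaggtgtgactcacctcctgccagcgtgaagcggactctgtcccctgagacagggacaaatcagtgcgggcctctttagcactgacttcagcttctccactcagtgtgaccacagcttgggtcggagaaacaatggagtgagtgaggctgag
Pparg: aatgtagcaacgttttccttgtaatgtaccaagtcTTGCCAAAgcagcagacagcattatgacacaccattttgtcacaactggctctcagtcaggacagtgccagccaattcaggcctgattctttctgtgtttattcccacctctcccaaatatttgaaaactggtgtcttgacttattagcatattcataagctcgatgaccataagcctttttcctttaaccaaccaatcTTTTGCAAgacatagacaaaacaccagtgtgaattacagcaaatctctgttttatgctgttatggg
Each sequence runs 5′ to 3′ on the strand of its gene, and *Plin1* and *Pparg* held the motif at 2 places each. The motif AGGTCA, recognized by nuclear receptors, was searched on both strands and found at the other 2 starts of *Pparg* and in 16.3% of all windows. Its direct repeat with a spacer of 1 base was in none of the 11 windows and in 0.0396% of all. TATAAA on the printed strand (8.32% of all windows) and CACGTG on both strands (7.15%) were in none of the 11 either. CCAAT on both strands (37.4%) was in windows of *Adipoq*, *Plin4* and *Pparg*. These matches describe the letters of the windows only.

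The genes for secreted proteins are given first. *Adipoq* on chromosome 16 (GRCm38.p6, 23146536 to 23157968) encodes adiponectin, a hormone that raises insulin sensitivity. Its level was 2.99 CPM in m1, 7.46 CPM in m2 and 0.101 CPM in m3 of the vehicle group. It was 3.36, 2.35 and 1.33 CPM in m4, m5 and m6 after VCR, and 0.232, 0.670 and 0.409 CPM in m7, m8 and m9 after RCM1-NPFA. With both drugs it was 4.78, 0.550 and 0.0641 CPM in m10, m11 and m12. The vehicle group alone thus held the highest *Adipoq* level of the series and 1 of the 2 lowest, so that every treated group overlapped it.

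*Lep* on chromosome 6 (29060221 to 29073876) encodes leptin, which signals the size of the fat stores to the brain. It was the least abundant of the 10 genes, with 28, 54 and 0 estimated counts in m1, m2 and m3. There were 9, 20 and 7 counts after VCR, 2, 2 and 1 after RCM1-NPFA, and 40, 1 and 0 with both drugs. *Lep* therefore rested on few reads outside of m1, m2, m5 and m10, and m2 was at least 18-fold above m3, taking 3 counts as the floor in m3.

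*Cfd* on chromosome 10 (79890853 to 79892655) encodes adipsin, a serine protease of the alternative complement pathway that fat cells secrete. In vehicle tumors it was 27.0, 45.9 and 0.134 CPM in m1, m2 and m3, a range of 341-fold between m2 and m3. It was 32.2, 28.4 and 9.71 CPM in m4, m5 and m6. After RCM1-NPFA it was 1.29, 3.96 and 2.86 CPM in m7, m8 and m9, and with both drugs 25.4, 1.91 and 0.160 CPM in m10, m11 and m12. All 3 RCM1-NPFA tumors lay below m1 and m2 and above m3.

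*Retn* on chromosome 8 (3655770 to 3659818) encodes resistin, a hormone that opposes insulin in mice. Its estimated counts were 57, 96 and 0 in vehicle tumors, 27, 66 and 12 after VCR, 4, 9 and 5 after RCM1-NPFA and 47, 0 and 0 with both drugs. The tumors m1, m2, m5 and m10 stood high, and m3, m11 and m12 had no *Retn* reads.

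Of the lipid droplet genes, *Plin1* and *Cidec* were highest in m2 and lowest in m3 and m12, and *Plin4* was highest in m5. *Plin1* on chromosome 7 (79721164 to 79732904) encodes perilipin 1, the coat protein that controls lipolysis. Its level was 2.56, 3.43 and 0.0672 CPM in m1, m2 and m3, 1.59, 1.65 and 0.715 CPM in m4, m5 and m6, 0.0993, 0.287 and 0.252 CPM in m7, m8 and m9, and 1.68, 0.0970 and 0.0320 CPM in m10, m11 and m12. *Cidec* on chromosome 6 (113424634 to 113435760) encodes a protein that fuses small droplets into large ones. Its level was 3.46, 9.14 and 0 CPM in m1, m2 and m3, 4.22, 2.78 and 1.14 CPM in m4, m5 and m6, 0.232, 0.926 and 0.409 CPM in m7, m8 and m9, and 3.47, 0.0970 and 0 CPM in m10, m11 and m12. Both genes were at 2 or fewer counts in m3 and m12.

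*Plin4* on chromosome 17 (56100587 to 56109948) encodes perilipin 4, which coats new droplets in fat and is also made in muscle. It was 7.19, 22.1 and 0.370 CPM in m1, m2 and m3, and 11.04, 25.0 and 5.30 CPM in m4, m5 and m6. It was 0.894, 1.5 and 22.5 CPM in m7, m8 and m9, and 15.4, 4.88 and 0.865 CPM in m10, m11 and m12. The RCM1-NPFA tumor m9 was among the 3 highest for *Plin4*, although its *Adipoq* level was below 0.5 CPM.

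*Fabp4* on chromosome 3 (10204342 to 10208616) encodes a fatty acid carrier of fat cells that endothelial cells and macrophages also make. It kept a floor that the secreted proteins lacked. It was 33.4, 62.7 and 6.32 CPM in m1, m2 and m3, 36.5, 58.1 and 26.8 CPM in m4, m5 and m6, 18.9, 23.9 and 31.1 CPM in m7, m8 and m9, and 39.4, 21.2 and 19.0 CPM in m10, m11 and m12. Its highest tumor stood 9.92-fold above its lowest. The endothelial sum of 12 genes was 230 to 396 CPM and the macrophage sum of 12 genes 2560 to 3761 CPM over the tumors, and their part in the *Fabp4* level was not tested.

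*Car3* on chromosome 3 (14863538 to 14872381) encodes carbonic anhydrase III, which is abundant in fat and in slow muscle. It was 16.3, 29.7 and 0.235 CPM in m1, m2 and m3, and 40.2, 135 and 16.9 CPM in m4, m5 and m6. It was 7.15, 11.6 and 168 CPM in m7, m8 and m9, and 52.6, 31.7 and 2.69 CPM in m10, m11 and m12. This was the widest range of the 10 genes with a read in every tumor, at 715-fold between m9 and m3, and its top pair of tumors, m9 and m5, was not that of *Adipoq*.

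*Pparg* on chromosome 6 (115360879 to 115490404) encodes PPARγ, the regulator of fat cell identity, which macrophages also express. Its range was the narrowest of the 10 genes, with 2.31, 2.52 and 1.04 CPM in m1, m2 and m3 and 1.24, 1.79 and 1.66 CPM in m4, m5 and m6. It was 1.62, 1.05 and 1.54 CPM in m7, m8 and m9, and 2.53, 1.49 and 1.76 CPM in m10, m11 and m12, 2.43-fold from lowest to highest. Its 640 counts over all tumors were divided by kallisto among 13 transcripts, none of which had a read in every tumor, so its isoforms could not be resolved.

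**Figure D1:**
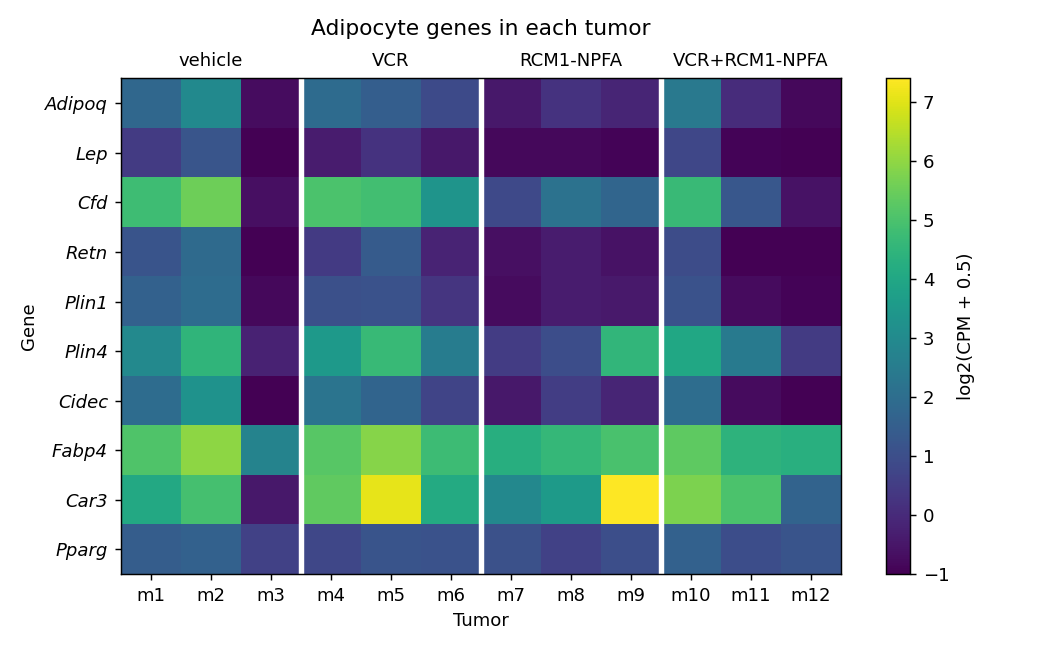
Heat map of the 10 adipocyte genes (rows) in the 12 tumors (columns, split by group), with color giving log2(CPM + 0.5). Columns m1, m2, m4, m5 and m10 are bright for most genes, m3 and m12 are dark, and m9 is bright for Car3, Plin4 and Fabp4 alone.

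On the TPM scale, *Fabp4* had the highest median level over the tumors (89.4 TPM), followed by *Car3* (28.0 TPM) and *Cfd* (14.2 TPM). *Fabp4* exceeded *Car3* in 11 of 12 tumors, and *Car3* exceeded *Cfd* in 7. The next 5 genes, *Plin4*, *Adipoq*, *Pparg*, *Retn* and *Cidec*, had medians from 1.69 down to 1.06 TPM, and their order was not stable between tumors: *Plin4* exceeded *Adipoq* in only 4. *Plin1* (0.467 TPM) exceeded *Lep* (0.0764 TPM) in all 12 tumors.

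The mean over the 10 genes of log2(CPM + 0.5), called the adipocyte index here, put the tumors in the order m2 (3.39), m5 (2.97), m10 (2.86), m1 (2.54), m4 (2.53), m9 (1.75), m6 (1.71), m8 (1.12), m11 (1.08), m7 (0.65), m12 (0.22) and m3 (-0.25). The groups were spread through this order. The index was 1.89 ± 1.9 in vehicle tumors, 2.4 ± 0.64 after VCR, 1.17 ± 0.55 after RCM1-NPFA and 1.39 ± 1.34 with both drugs (SD, n = 3 each). The share of all reads that fell on the 10 genes ran from 0.000796% in m3 to 0.0249% in m5. *Car3* alone held 135.4 of the 258.3 CPM summed over the 10 genes in m5, and 168.3 of 227.6 CPM in m9. The sum of *Adipoq*, *Plin1*, *Cidec*, *Lep* and *Retn* was 25.06 CPM in m2, 9.627 CPM in m5 and 1.259 CPM in m9. Of the 4 tumors with the highest index, all had low Y-linked levels, as had m7 with the third lowest index.

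To determine whether treatment changed the adipocyte genes, each treated group was compared with vehicle by edgeR's quasi-likelihood test in one fit of all 12 tumors. A gene was called at a Benjamini-Hochberg adjusted p under 0.1, the threshold of the study. After VCR, 0 of the 10 genes were called, against 5.55% of all genes tested, and the smallest adjusted p was 0.424 for *Car3*. Their log2 fold changes ran from -1.18 for *Lep* (SE 1.22) to 2.06 for *Car3* (SE 1.43), with a median of -0.43 beside 0.002 over all genes, and 3 were above 0. None had an unadjusted p under 0.05, against 3892 of the 17602 genes tested. DESeq2 called 0 as well, against 13% of all genes. In 0 of the 10 genes were the VCR and vehicle tumors without overlap, against 24.4% of all genes. In the same comparison, 10 of 22 muscle fiber genes and 4 of 12 endothelial genes were called higher, and their part in the adipocyte values was not tested. No gene of any kind was called after VCR when m2, m4 or m5 was left out. The sign of the member median turned without m2 (0.59), by limma-voom (0.83), on log2(TPM + 0.1) (0.63) and with a term for the tumors with Y-linked transcripts (0.73).

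RCM1-NPFA gave the lowest fitted values. *Lep* was at a log2 fold change of -3.96 (SE 1.60), *Plin1* at -3.22 (SE 1.25), *Cfd* at -3.17 (SE 1.505), *Retn* at -3.08 (SE 1.502), and *Adipoq* and *Cidec* both at -2.99 (SE 1.31 and 1.54). *Fabp4* (-0.47, SE 0.60), *Plin4* (-0.25, SE 1.33) and *Pparg* (-0.48, SE 0.34) lay nearer to 0, and *Car3* was at 2.02 (SE 1.43). None of these passed the test, since 0 of the 10 genes were called against 0% of all genes, and the smallest adjusted p of edgeR was 0.445 for *Plin1*. The unadjusted p of edgeR was under 0.05 for 3 of the 10 (*Adipoq*, *Plin1* and *Lep*) and for 1722 of the 17602 genes tested. DESeq2 called 0 of the 10, against 1.57% of all genes. The median of the 10 was -2.99 beside 0.003 over all genes, with 9 below 0. No gene separated the 2 groups, against 11.4% of all genes. Of the vehicle tumors, m3 lay at or below the lowest RCM1-NPFA tumor for each of the 10 genes. For *Car3* and *Plin4*, m9 lay above m1 and m2 while m7 lay below them, so that these genes overlapped without m3 too. The median was -1.79 without m2, -1.04 by limma-voom, -1.13 with the Y-linked term and -1.38 on log2(TPM + 0.1). It was -0.48 with only the groups compared, where fewer of the 10 genes passed the filter, so that it is not a median of the same genes. *Car3* was at -0.72 without m9.

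With both drugs, 0 of the 10 genes were called, against 0% of all genes, and the smallest adjusted p was 0.752 for *Plin1*, by edgeR. Log2 fold changes ran from -1.81 for *Cidec* (SE 1.43) to 0.91 for *Car3* (SE 1.40), with a median of -1.02 beside 0.002 over all genes and 9 below 0. None had an unadjusted p under 0.05, against 1286 of the 17602 genes tested. DESeq2 called 0, against 0.347% of all genes, and 0 of the 10 separated the groups, against 12.6% of all genes. The median was -4.05 without m10, when some of the genes had nearly no reads left in the group, 0.053 without m2 and -0.49 with the Y-linked term. The 3 comparisons share the vehicle tumors.

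The interaction of the drugs asked whether the combination departed from the sum of both single effects on the log2 scale. It was called for 0 of the 10 genes against 0% of all genes, with *Lep* at 4.07 (SE 2.09, adjusted p 0.409 by edgeR) and *Car3* at -3.16 (SE 1.98, adjusted p 0.496). None had an unadjusted p under 0.05, against 2437 of the 17602 genes tested. A single edgeR test for any difference among the 4 groups also called 0 of the 10 against 0% of all genes, with a smallest adjusted p of 0.552 for *Plin1*. In it, 0 of the 10 had an unadjusted p under 0.05, against 1855 of the 17602 genes tested. DESeq2 called 0 of the 10 in both tests, against 2.62% of all genes for the interaction and 3.73% for any difference.

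**Figure D2:**
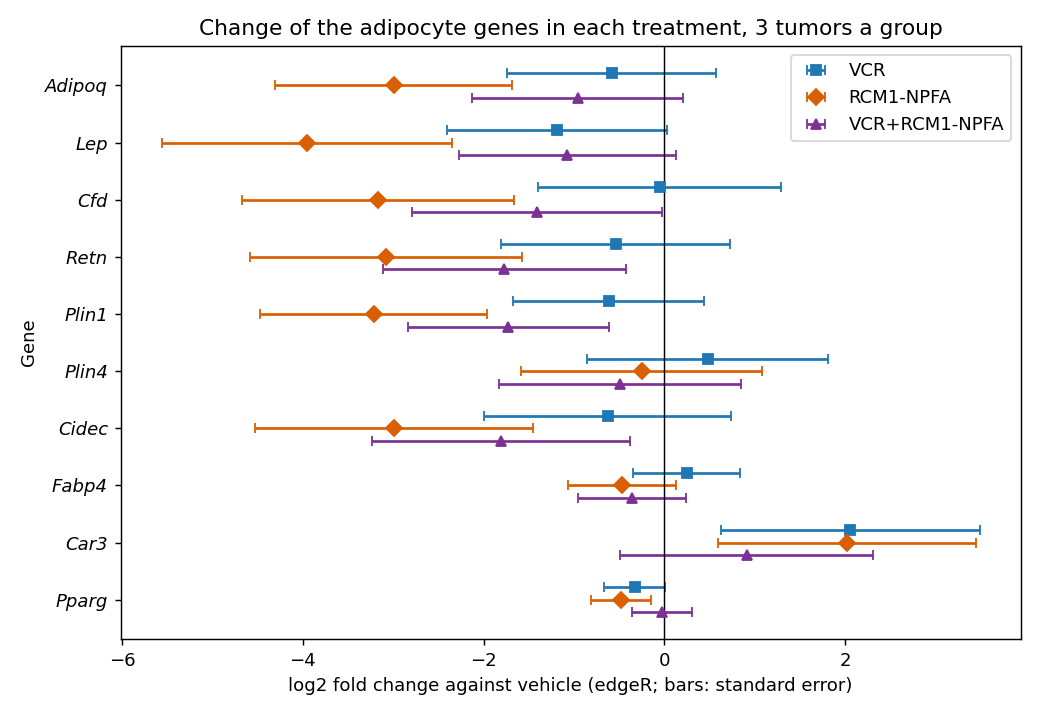
Log2 fold change of each adipocyte gene against vehicle (x axis; bars show the standard error from edgeR, 3 tumors a group) for VCR, RCM1-NPFA and both. The RCM1-NPFA points of 6 genes lie near -3 to -4, Car3 lies above 0 in all 3 comparisons, and 0 of the 30 values passed an adjusted p of 0.1.

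Between single tumors, most of the adipocyte genes rose and fell together. Over the 12 tumors, the log2(CPM + 0.5) of *Adipoq* was related to that of *Cidec* with a Pearson r of 0.976 (Spearman rho 0.970), of *Plin1* with 0.966 (0.944), of *Cfd* with 0.961 (0.937), of *Lep* with 0.931 (0.935) and of *Retn* with 0.930 (0.894). Their permutation p-values were 1e-05 to 4e-05 for r over 100000 resamples, of which 1e-05 is the smallest possible, and 6e-05 to 7.2e-05 adjusted over the 9 relations. On values centered on their group means these r were 0.920 to 0.987, and without m2 and m10, the tumors farthest from the median, 0.873 to 0.982. *Fabp4* (r 0.805, rho 0.895, permutation p 0.00057, adjusted 0.000855) and *Plin4* (r 0.755, rho 0.692, permutation p 0.00667, adjusted 0.00858) followed less closely. Without m2 and m10 their r were 0.745 and 0.688.

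*Pparg* and *Car3* were the loosest over the 12 tumors. On group-centered values their r were 0.700 and 0.740, near the 0.770 of *Plin4*. For *Pparg* r was 0.639 (rho 0.545, permutation p 0.0271 for r and 0.0699 for rho, adjusted 0.0304 and 0.0748), and it fell to 0.329 without m2 and m10, so that the relation rested on those tumors. For *Car3* r was 0.536 (rho 0.538, permutation p 0.0727 and 0.0748, adjusted to the same values), with 0.558 without m2 and m10. Without m9 its r was 0.732 and passed (adjusted permutation p 0.00843). Among the 7 tumors with 20 or more *Adipoq* counts, there were 5.31 to 12.1 *Cfd* counts per *Adipoq* count, but 3.98 to 57.6 *Car3* counts.

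**Figure D3:**
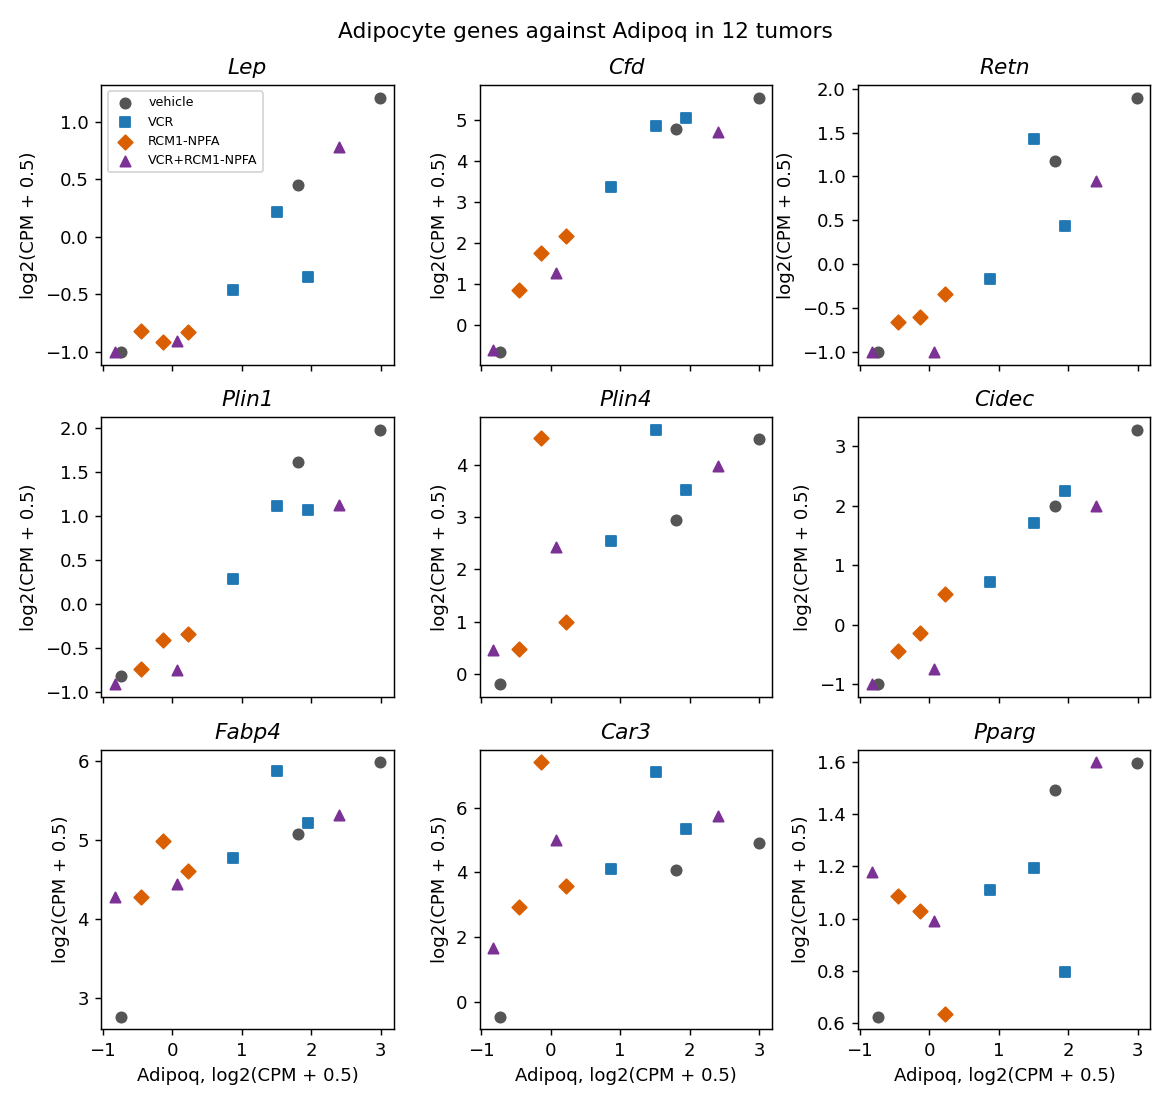
Log2(CPM + 0.5) of each of 9 adipocyte genes (y axes, 1 panel a gene) against that of Adipoq (x axis) in the 12 tumors, with groups by color and shape. Cidec, Plin1 and Cfd lie along a line (r of 0.961 to 0.976), while Car3 and Pparg scatter (0.536 and 0.639).

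*Car3* and *Plin4* stood apart from the other genes in tumors rich in muscle fiber transcripts, a comparison made after their values were seen. The 2 tumors with the highest muscle fiber sum, m9 (23170 CPM) and m5 (15330 CPM), were also the highest pair for *Car3*, at 168 and 135 CPM. Against the mean log2(CPM + 0.5) of the 22 muscle fiber genes, *Car3* had an r of 0.753 (rho 0.825, permutation p 0.00327 for r and 0.00145 for rho, adjusted over 10 relations 0.0327 and 0.0145). Its r was 0.755 on group-centered values, 0.844 without m2 and m3, 0.679 without m3 and 0.894 without m2. The call was not stable, as it was lost in 9 of the 12 sets that left out 1 tumor, with an adjusted permutation p between 0.0014 and 0.223. In these sets r stayed between 0.679 and 0.894. *Plin4* had an r of 0.559 (rho 0.601, permutation p 0.0609 and 0.0423, adjusted 0.305 and 0.211). Without m2 its r was 0.855 and passed (adjusted permutation p 0.0062), and over the 12 sets the adjusted p ran up to 0.825. The adjusted p of the other 8 genes lay between 0.729 and 0.996 by permutation of r. *Adipoq* was at 0.409 CPM in m9, the tumor with the most muscle fiber transcripts, and at 7.46 CPM in m2, the tumor with the fewest. It was at 0.101 CPM in m3, which was next to m2 in muscle fiber sum (333 CPM), and at 2.35 CPM in m5. Over the 12 tumors, the r of *Adipoq* with the muscle fiber genes was 0.0482 (rho 0.126).

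**Figure D4:**
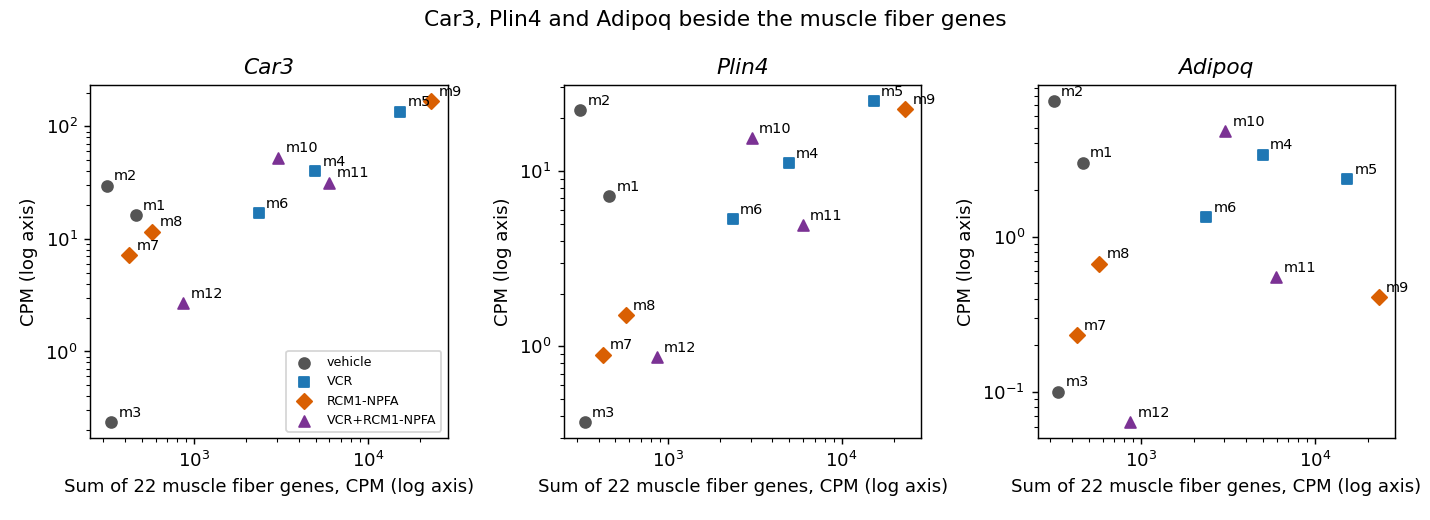
CPM of Car3, Plin4 and Adipoq (y axes, log scale) against the summed CPM of 22 muscle fiber genes (x axis, log scale), 1 point a tumor, with groups by color and shape. Car3 is highest in m9 and m5, at the right. Adipoq is highest in m2, at the far left, but low in m3 beside it (r of 0.0482 with the muscle fiber genes).

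The index was set against the mean of 7 other gene lists over the 12 tumors, and none of these relations passed an adjusted p of 0.05 by permutation. They are given as a description, since the index is a score over chosen genes. Its r over the 12 tumors was 0.288 with muscle fiber, 0.449 with keratinocyte, 0.0555 with endothelial, -0.385 with macrophage, 0.238 with myogenic, 0.481 with cell cycle and 0.415 with fat precursor genes, and rho was between -0.252 and 0.531. With an index of only *Adipoq*, *Plin1*, *Cidec*, *Lep* and *Retn*, r turned to -0.011 for muscle fiber and to -0.209 for endothelial genes. Keratinocyte genes were almost absent, as 10 of the 12 were too low to be tested.

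Other genes of fat metabolism were then read against the index, in a fit that kept the 4 groups as terms. Of 17592 genes outside the 10, edgeR called 23 (0.131%), 17 higher and 6 lower as the index rose. The count was 3 without m3, 314 without m6 and 1 with a term for the tumors with Y-linked transcripts. DESeq2 called 533. Of 8 lipid droplet and lipolysis genes, 1 was called higher, *G0s2*, an inhibitor of the lipase ATGL, with a log2 slope of 0.71 per unit of index (SE 0.12, adjusted p 0.0828 by edgeR). *Plin2*, which coats droplets in most cells, stayed between 113 and 222 CPM with a slope of 0.03 (SE 0.06), and *Pnpla2*, which encodes ATGL, between 50.5 and 81.1 CPM with -0.01 (SE 0.05).

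Of 14 genes of fatty acid and triglyceride synthesis, 2 were called higher: *Pck1*, which encodes an enzyme of glyceroneogenesis (slope 1.93, SE 0.28, adjusted p 0.03 by edgeR), and *Thrsp*, a lipogenic regulator (slope 1.65, SE 0.22, adjusted p 0.0245). *Pck1* was 6.45 CPM in m2 and had 0 counts in m3. Of the abundant enzymes of the list, *Fasn* (fatty acid synthase) was between 459 and 682 CPM (slope 0.06, SE 0.03), *Acly* (ATP citrate lyase) between 301 and 440 CPM (slope 0, SE 0.04) and *Scd1* (a desaturase of fatty acids) between 120 CPM in m12 and 250.4 CPM in m2 (slope 0.11, SE 0.05, adjusted p 0.366 by edgeR). Of 8 genes for secreted products, 1 was called, *Hp* (haptoglobin, slope 1.33, SE 0.21, adjusted p 0.0619 by edgeR), which ran from 1.28 CPM in m3 to 80.2 CPM in m2. *Angptl4*, an inhibitor of lipoprotein lipase, ran from 19.3 to 43.3 CPM with a slope of 0.09 (SE 0.08).

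Of 8 fat cell transcription factors, 10 tested receptors and uptake genes, 8 tested brown fat genes and 11 fat precursor genes, 0 were called along the index by edgeR. An unadjusted p under 0.05 was found for 3 of the factors, 3 of the receptors and uptake genes, 3 of the brown fat genes and 2 of the precursor genes, and for 2 of the 8 lipid droplet, 5 of the 14 synthesis and 4 of the 8 secreted genes, against 13.4% of all genes outside the 10. The slopes of these 3 factors differed in sign, as did those of the 2 precursor genes. In the other lists the slopes of these genes were all above 0. Those of the 3 receptors and uptake genes ran from 0.31 (SE 0.11) to 1.34 (SE 0.30). The genes named next were chosen as abundant. *Adipor1*, a receptor of adiponectin, was at 143 to 175 CPM (slope -0.04, SE 0.03), and *Pdgfrb*, which marks precursors and pericytes, at 165 to 324 CPM (slope -0.06, SE 0.06). *Cebpa* and *Cebpb*, partners of *Pparg* in fat, were at 27.1 to 45.1 and 41.9 to 94.7 CPM with slopes of -0.11 (SE 0.05) and -0.20 (SE 0.07). *Ucp1* and *Cidea*, named because they define brown fat, did not exceed 0.0672 and 0.0975 CPM.

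Between the groups, few genes of these lists were called. After VCR, 1 of 8 secreted products (*Nampt*) and 1 of 10 receptors and uptake genes (*Insr*, the insulin receptor) were called lower, and 1 of 8 brown fat genes (*Cox8b*, a cytochrome oxidase subunit also made in muscle) was called higher. Of 11 fat precursor genes, *Pi16* was called higher and *F3* lower. Of all genes 5.55% were called in that comparison, and 0% in each of the other two. After VCR, 0 of all genes were called without m2, 0 without m4 and 0 without m5, and 9 were called at a threshold of 0.05. Of the lipid droplet, synthesis and transcription factor lists 0 genes were called after VCR, and 0 of any of these lists after RCM1-NPFA or both drugs. The list medians in the 3 comparisons lay between -0.17 and 0.55 on the log2 scale.

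By correlation with the index, the 15 most similar of the genes tested outside the 10 had a Pearson r of 0.867 or more over the 12 tumors. The values of r are given without a p, as the genes were ranked by it. They were *Lrg1* (0.957), *Glb1l2* (0.950), *Serpina3c* (0.928), *Orm1* (0.926), *G0s2* (0.905), *Mup22* (0.904), *Hp* (0.902), *Pnpla3* (0.900), *Thrsp* (0.895), *Lrrn2* (0.891), *Wfdc21* (0.887), *Slc36a2* (0.880), *Apoc1* (0.875), *Steap4* (0.869) and *Pck1* (0.867). *Lrg1*, a secreted glycoprotein of the acute phase, was 8.08, 13.4 and 0.975 CPM in m1, m2 and m3. It was 11.9, 13.6 and 6.89 CPM in m4, m5 and m6, 4.44, 4.05 and 5.48 CPM in m7, m8 and m9, and 11.6, 3.01 and 2.63 CPM in m10, m11 and m12. *Lrg1* had the smallest adjusted p along the index (slope 0.92, SE 0.08, adjusted p 0.00773 by edgeR). *Orm1* and *Hp*, both acute phase proteins of the blood, were highest in m2, whereas *Lrg1* was highest in m5. *Pnpla3*, a lipid droplet enzyme, had a slope of 1.10 (SE 0.13, adjusted p 0.00926 by edgeR). *Mup22* belongs to a family of near-identical major urinary protein genes, and its counts are uncertain. Several of the 15 genes rested on few reads. *Lrrn2* had at most 13 counts in a tumor, *Apoc1* at most 22, and *Orm1* and *Wfdc21* at most 25.

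**Figure D5:**
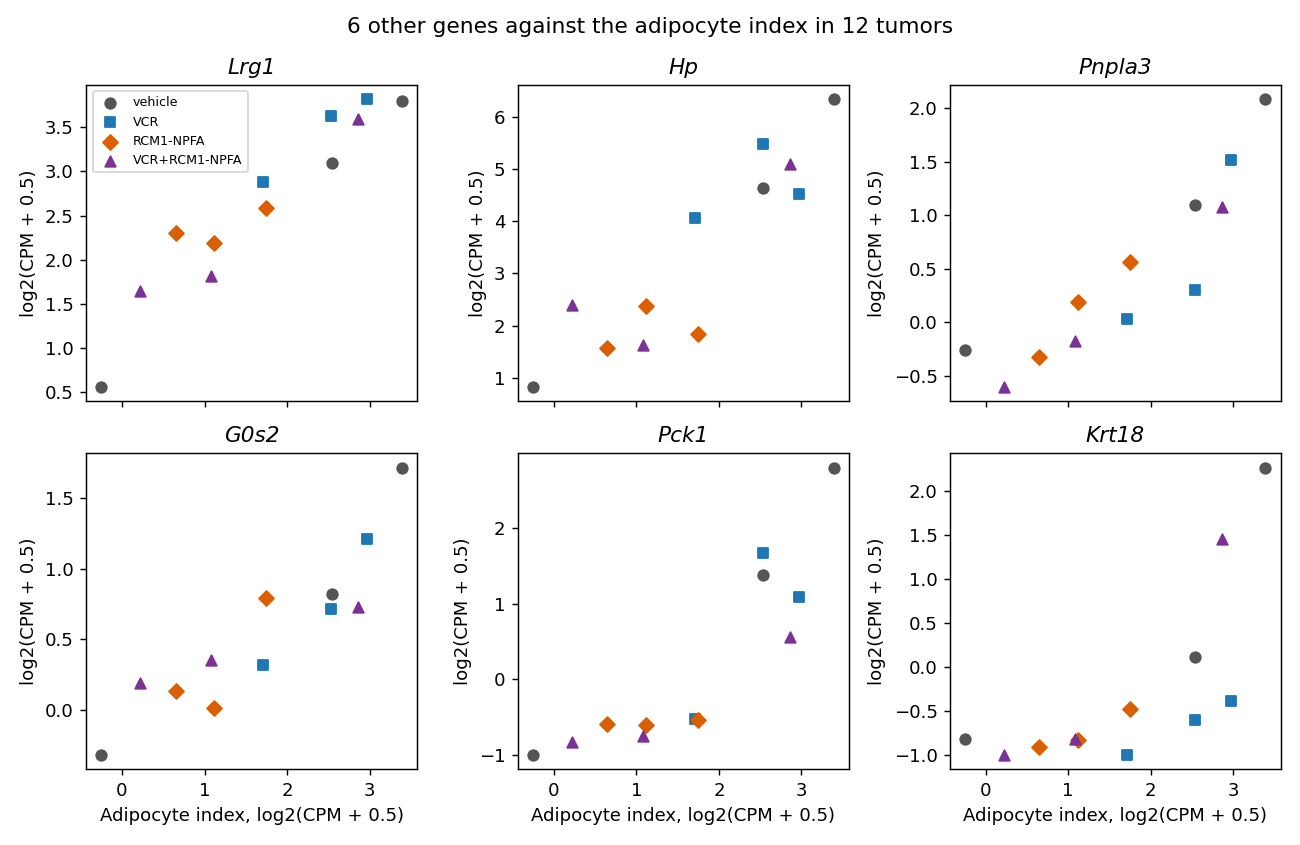
Log2(CPM + 0.5) of 6 genes (y axes) against the adipocyte index (x axis, mean log2(CPM + 0.5) of the 10 genes) in the 12 tumors, with groups by color and shape. Lrg1 and Pnpla3 rise along the whole index, with r of 0.957 and 0.900, while Krt18 is near the bottom except in m2 and m10.

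Among the genes called along the index were 2 epithelial ones, singled out after their values were seen, *Krt18* (slope 2.36, SE 0.25, adjusted p 0.00897 by edgeR) and *Epcam* (1.22, SE 0.21, adjusted p 0.0891). *Krt18*, a keratin of simple epithelia, had 129 counts in m2, 74 in m10 and 19 in m1, and 8 or fewer in each of the others. *Epcam*, an epithelial adhesion molecule, had 47 counts in m2, 23 in m10 and 13 in m1, and 9 or fewer in the others. *Krt8* and *Krt19*, looked up afterwards, were also highest in m2 (281 and 218 counts) and m10 (201 and 144). The part of epithelial tissue in the adipocyte values was not tested.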

How the data were processed

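Poly-A libraries of 12 tumors were assigned by the authors to GRCm38 transcripts with kallisto, whose version is not given in the sources used here. The deposited estimated counts are not normalized, and the deposited TPM values are scaled for length by the authors. A stranded kit is named but the libraries are called non-stranded, so antisense overlaps may not be resolved. The treatment label of the control samples names RCM1 nanoparticles, which conflicts with their titles and the study's design, so groups were taken from titles.

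All 120299 transcripts matched RefSeq genes of GRCm38.p6, and summed counts were rounded. Genes were kept by filterByExpr (minimum count 10), normalized by TMM and tested with edgeR 4.0.16 (R 4.3.3) over all genes. Depth was 29342195 to 32108055 counts per tumor, and floors (3 counts) cover counting error only. No batch is named, and the labels do not state that each tumor came from another mouse, so p-values measure the spread between these tumors.

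Alternatives were DESeq2 1.42.0 (size factors or Wald test), limma 3.58.1 (voom, or log2(TPM + 0.1)), no filter, a threshold of 0.05, a Y chromosome term, only the groups compared, other pseudocounts and leaving out each tumor. Relations to muscle fiber genes and motif searches were chosen after seeing the data. Members and lists were chosen with earlier results of these data known. Named genes were all members, from each list at most 4 (abundant or called), and the 15 most similar to the index. *Krt18*, *Epcam*, *Krt8* and *Krt19* were added after their values were seen, and *Ucp1* and *Cidea* as markers of brown fat. The fit was tested on simulated data. Correlations used Python 3.11.15 with scipy 1.17.1, and figures matplotlib 3.10.9.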

Additional observations from a re-analysis of the deposited data

How the results depend on the processing

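No alternative called any of the 10 adipocyte genes in any comparison, whichever tool, filter, threshold or tumor was changed, so the alternatives bear on the size and sign of uncalled values only, and the cause of each change was not tested. *Lep*, *Retn*, *Plin1* and *Cidec* had 3 or fewer counts in several tumors, so their values there rest on few reads. No paired analysis was possible because the tumor numbers 1 to 12 are not shared between groups.

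After VCR, the median log2 fold change of the 10 genes was 0.83 by limma-voom, which gave values above 0 for *Adipoq* (0.66), *Plin1* (0.44), *Lep* (0.26), *Cfd* (1.82), *Cidec* (1.52) and *Retn* (0.96). On log2(TPM + 0.1) the values were 0.44 for *Adipoq*, 0.12 for *Plin1*, 1.68 for *Cfd*, 0.66 for *Cidec* and 0.68 for *Retn*. With a Y chromosome term they were 0.74 for *Adipoq*, 0.57 for *Plin1*, 0.20 for *Lep*, 1.65 for *Cfd*, 1.07 for *Cidec* and 0.73 for *Retn*. Leaving out each tumor gave -1.15 to 0.56 for *Adipoq*, -0.64 to 0.76 for *Cfd*, -1.21 to 0.61 for *Cidec*, -1.41 to 0.33 for *Retn*, -0.25 to 1.00 for *Fabp4* and -0.27 to 1.83 for *Plin4*.

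After RCM1-NPFA, the median was -1.04 by limma-voom, -1.38 on log2(TPM + 0.1), -1.13 with the Y chromosome term and -0.48 with only the groups compared, where fewer of the 10 genes passed the filter. *Fabp4* was at 0.024 by limma-voom and at 0.16 with the Y chromosome term, and *Plin4* at 1.17 with that term. Leaving out each tumor gave -0.72 to 2.88 for *Car3*, -0.96 to 0.29 for *Fabp4* and -3.04 to 1.11 for *Plin4*.

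With both drugs, limma-voom gave 0.040 for *Plin4*, 0.087 for *Fabp4* and 0.039 for *Pparg*, log2(TPM + 0.1) gave 0.092 for *Fabp4*, and the Y chromosome term gave 0.048 for *Plin4*, 0.079 for *Fabp4* and 0.21 for *Pparg*. Leaving out each tumor gave a median of -4.05 to 0.053, and -3.52 to 0.19 for *Adipoq*, -0.85 to 0.40 for *Fabp4*, -1.80 to 0.87 for *Plin4* and -0.33 to 0.18 for *Pparg*.

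The 23 genes that followed the index became 53 with no filter, 533 by DESeq2, 1 with the Y chromosome term, 13 at a threshold of 0.05, and 3 to 314 when each tumor was left out. The index of 5 genes gave r of -0.011 with muscle fiber and -0.209 with endothelial genes, and r with endothelial genes ran from -0.238 to 0.55 without each tumor. The relation of *Car3* to *Adipoq* passed an adjusted p of 0.05 with a pseudocount of 0.1 (r 0.608) and without m9 (r 0.732), and ran from 0.414 to 0.732 without each tumor. That of *Pparg* to *Adipoq* ran from 0.525 to 0.787 and missed it without m1, m2, m3 or m10. The relation of *Car3* to muscle fiber genes ran from 0.679 to 0.894 and missed it in 9 of 12 sets without 1 tumor. All other relations of *Adipoq* kept their sign and their side of that threshold under every alternative.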
